A study of Mus musculus with 24 samples.

Results

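The common gamma chain is a receptor subunit, encoded by *Il2rg*, that several interleukins share. Of 17805 genes tested in mouse blood, 10 belong to its signalling as taken here: the receptor chains *Il2ra*, *Il2rb*, *Il2rg*, *Il4ra*, *Il21r* and *Il15ra*, the cytokine *Il15*, the kinase *Jak3* and the transcription factors *Stat5a* and *Stat5b*. They were chosen by name, as every probe of the one-colour Agilent array that carries one of these names, which gave 15 probes, 2 for each of 5 genes. All 10 genes passed the filters on dim and unvarying probes. A gene is described by its brightest probe unless another is named.

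The blood came from male C57BL/6J mice that were young (2 months) or old (21 months) and that received total body x-rays at 4 Gy or a sham exposure. There were 6 mice in each of the 4 groups (young unirradiated, young irradiated, old unirradiated, old irradiated), 1 array per mouse and 24 arrays in all. Whole blood was drawn 24 h later by cardiac puncture, and globin RNA was reduced before labelling. The mice were bought at 2 ages, and no mouse was followed over time.

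As background, interleukins bind a specific receptor chain, which pairs with the common gamma chain. The kinases bound to the chains, JAK1 and JAK3, then phosphorylate STAT proteins, of which STAT5A and STAT5B carry most of the signal of interleukin 2 and interleukin 15. The pathway is known for keeping lymphocytes alive: loss of *Il2rg* or *Jak3* leaves mice short of T, B and natural killer (NK) cells. *Il15* is made largely by myeloid and stromal cells and is presented on *Il15ra* to cells that carry *Il2rb*. The genes lie in part beside each other in the genome: *Il2ra* and *Il15ra* are about 12 kb apart on chromosome 2, *Il4ra* and *Il21r* 23.8 kb on chromosome 7, and *Stat5b* and *Stat5a* 0.347 kb on chromosome 11 (GRCm38).

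Probes are shown first where the sequence or its listing bears on what a value measures, together with that of *Il15*, the member called higher in young mice. The 60-base probes, with the mm9 coordinates that the scanner files give, are the single probe of *Il15*, both probes of *Jak3* and the dimmer of the 2 probes of *Il15ra*. Each was designed on a transcript of its gene and therefore lies in exons. One *Jak3* probe, at chr8:74214085-74214144 on the plus strand, is also listed in the files under a transcript of the neighbouring gene *Insl3*, so its signal could include that gene. The other *Jak3* probe, at chr8:74210801-74210860 on the plus strand, is not. The *Il15* probe is at chr8:84858403-84858462 on the minus strand and the *Il15ra* probe at chr2:11654809-11654868 on the plus strand.
Il15: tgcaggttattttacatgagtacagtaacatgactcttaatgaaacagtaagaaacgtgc
Jak3, listed with Insl3: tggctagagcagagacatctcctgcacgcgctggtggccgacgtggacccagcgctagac
Jak3, second probe: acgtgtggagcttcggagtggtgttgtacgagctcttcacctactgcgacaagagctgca
Il15ra, dimmer probe: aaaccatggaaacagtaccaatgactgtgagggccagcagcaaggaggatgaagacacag

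The brighter *Il15ra* probe holds a run of TG repeats, and so do the probes of the 2 genes whose pattern over the 24 arrays was most like it, *Scn8a* and *Rad51c*. The 30 bases around the run are given for each, with the run in capitals. They lie at chr2:11655441-11655470, chr15:100875712-100875741 and chr11:87191027-87191056 (mm9), on the plus, plus and minus strands.
Il15ra, brighter probe: tatgtaTGTGTGTGTGTGTGTGTatgtaaa
Scn8a: acatgtaTGTGTGTGTGTGTGTGaagaatg
Rad51c: TGTGTGTGTGTGTGTGgtggtggtggtgtt

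Values are log2 intensities minus the median of the array, so a difference of 1 is a doubling relative to that median. Median raw intensities of the arrays ran from 8.66 to 44.8, and between 43.9% and 64.4% of spots were well above background. The 2 lowest medians, 8.66 and 8.84, were those of old irradiated mice 4 and 6, and the next lowest was 14.4. Old irradiated mice 4 and 6 stood apart from the other 4 old irradiated mice: their medians of absolute log2 difference to the rest of the group were 1.35 and 1.36, against at most 0.693 for the others, and their mean red cell marker levels were 12.2 and 12.2, against 8.0 to 9.0. Old unirradiated mice 1 and 6 were the most alike pair within any group: they differed by a median of 0.140, within the 0.083 to 0.165 by which repeat spots of one probe differed on a single array, although they were on different slides. Averaged and counted as 1 sample, they left 2 members called in the comparison of old irradiated with old unirradiated mice and 6 in that of the unirradiated ages. The shares of all genes called were then 18.4% and 59.4%. Values without these mice are given beside the results that they move most. Genes were called differentially expressed (DEGs) at p below 0.005 and an adjusted p below 0.05, with limma's moderated test on the 2 groups compared and Benjamini-Hochberg adjustment over all genes.

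Markers of blood cells were present as the label says, with the red cell list at 10.1 to 11.5 and the platelet list at 7.66 to 8.59 in young unirradiated mice. Hepatocyte markers were also found: the mean of the list ran from -0.25 to 6.38 in young unirradiated, 0.471 to 10.3 in young irradiated, -1.16 to -0.58 in old unirradiated and 0.178 to 9.57 in old irradiated mice. In whole blood, fewer cells of a type and less RNA per cell cannot be told apart.

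**Figure D1:**
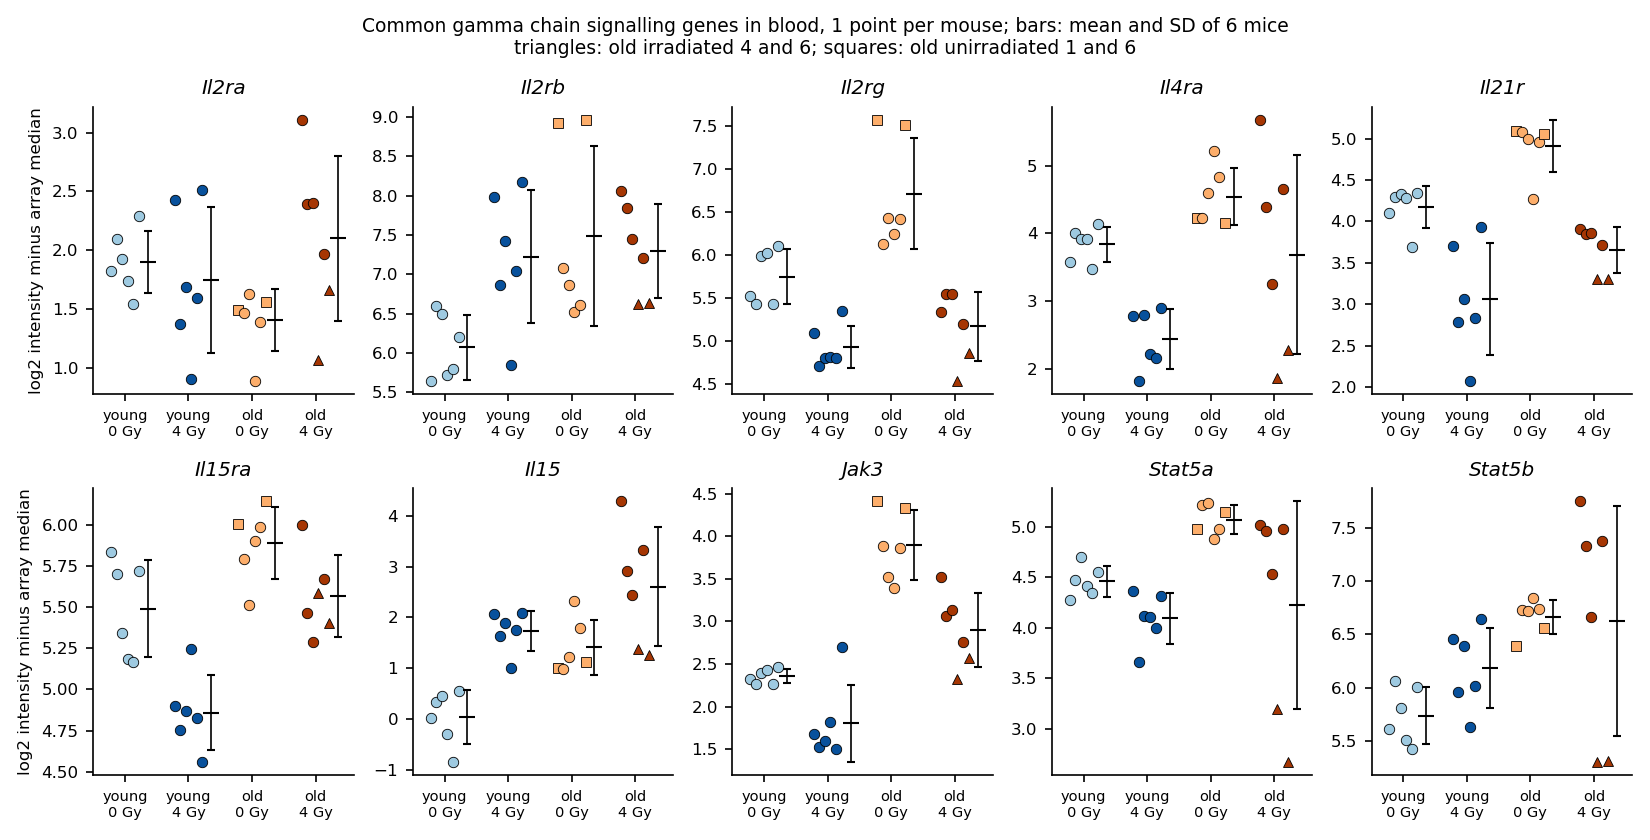
Log2 intensity minus the array median (vertical axis) of each gene in the 4 groups (horizontal axis), with 1 point per mouse and the mean and SD of 6 mice beside the points. *Il15* lies higher in all 6 young irradiated mice than in any young unirradiated mouse, and old irradiated mice 4 and 6 (triangles) are the 2 lowest of their group in *Stat5a*, *Stat5b*, *Il4ra* and *Il15*.

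In young mice, the cytokine was higher after irradiation and 4 of the 6 receptor chains were lower, 1 of them by only 1 of its 2 probes. *Il15* was upregulated 3.25-fold, while *Il4ra*, *Il21r*, *Il2rg* and the brighter *Il15ra* probe were downregulated 2.63-fold, 2.16-fold, 1.77-fold and 1.55-fold. These were 5 of the 10 genes, beside 35.4% of all genes called in this comparison, 14.3% higher and 21.1% lower. The median difference of the 10 genes was -0.46 and that of all genes -0.20 on the log2 scale.

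The lowest, median and highest log2 levels of *Il15*, which supports NK cells and memory T cells, were -0.85, 0.18 and 0.56 in young unirradiated mice and 1.0, 1.82 and 2.08 in young irradiated mice. The groups did not overlap. The log2 difference was 1.70 with a standard error (SE) of 0.26 (limma, adjusted p = 0.000221). On the single slide that held both young groups, with 2 mice each, it was 2.00 (adjusted p = 0.096). *Il15* was well above background on 5 of the 6 arrays of the unirradiated group and on all 6 of the irradiated group.

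*Il4ra*, the signalling chain for interleukin 4 and interleukin 13, ran from 3.47 through a median of 3.91 to 4.14 in young unirradiated mice and from 1.82 through 2.50 to 2.90 in young irradiated mice. Again no irradiated mouse reached the unirradiated range, and the log2 difference was -1.40 (SE 0.21, limma adjusted p = 0.000192). The dimmer *Il4ra* probe differed by -0.70 (SE 0.19, adjusted p = 0.00999 over 24130 probes), in the same direction.

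*Il2rg* gave 5.42, 5.76 and 6.10 as lowest, median and highest level in young unirradiated mice, and 4.70, 4.80 and 5.35 in young irradiated mice, without overlap. Its log2 difference was -0.82 (SE 0.18, limma adjusted p = 0.00214). The 3 genes without overlap, *Il15*, *Il4ra* and *Il2rg*, stand beside 24.6% of all genes whose groups did not overlap. *Il21r*, the receptor chain for interleukin 21, which acts on B cells and cytotoxic lymphocytes, overlapped: young irradiated mice 1 and 6, at 3.70 and 3.94, lay above the lowest unirradiated mouse at 3.69. Its log2 difference was -1.11 (SE 0.28, limma adjusted p = 0.00554).

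*Il2rb*, the signalling chain shared by the interleukin 2 and interleukin 15 receptors, was higher by 1.15 (SE 0.35) in young irradiated mice but was not called, since its unadjusted p missed 0.005 (limma adjusted p = 0.0168). The levels were 5.64, 6.00 and 6.59 in unirradiated mice and 5.85, 7.24 and 8.18 in irradiated mice. Young irradiated mouse 4 alone, at 5.85, lay within the unirradiated range, and without it the difference was 1.42 and passed (adjusted p = 0.00119). The dimmer *Il2rb* probe rose by 1.20 (SE 0.34) and passed the threshold over all probes (limma adjusted p = 0.0114).

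The intracellular genes changed less in young mice. *Jak3*, the kinase that binds the common gamma chain, differed by -0.56 (SE 0.19, limma adjusted p = 0.0317). Young irradiated mouse 6 stood at 2.70, above every unirradiated mouse, while the other 5 irradiated mice lay at or below 1.82 and every unirradiated mouse at or above 2.27. Without mouse 6 the difference was -0.74 and passed (adjusted p = 0.000605). *Stat5a* differed by -0.37 (SE 0.15, adjusted p = 0.056), *Stat5b* by 0.45 (SE 0.19, adjusted p = 0.0747) and *Il2ra*, the high-affinity chain for interleukin 2 found on regulatory and activated T cells, by -0.15 (SE 0.26, adjusted p = 0.665), and none of these 3 passed.

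The fall of *Il15ra* in young mice rested on its brighter probe. This probe ran from 5.17 through 5.52 to 5.83 in unirradiated mice and from 4.56 through 4.85 to 5.25 in irradiated mice, a log2 difference of -0.63 (SE 0.17, limma adjusted p = 0.0077). The call was lost on leaving out any 1 of young unirradiated mice 1, 2 and 6 and young irradiated mice 2, 5 and 6, with differences of -0.56 to -0.62 and adjusted p between 0.0166 and 0.02. The dimmer probe, with no such repeat, differed by 0.18 (SE 0.28, adjusted p = 0.644) and had a median of 0.15 in unirradiated and 0.61 in irradiated mice.

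The brighter probe moved with other probes that hold the same repeat. Of the other probes measured on all arrays, 82 held at least 7 TG units in a row, and their median correlation with it over the 24 arrays was 0.94, against 0.29 for the remaining 24010 probes. For deviations from the group means the medians were 0.90 and 0.07. Of its 20 most correlated probes, 18 held the repeat. The mean of the 82 probes ran from 6.74 to 7.49 in young unirradiated mice and from 5.86 to 6.67 in young irradiated mice. The dimmer *Il15ra* probe had a median correlation of -0.05 with the repeat probes. These correlations describe arrays that share a scale, with young and old arrays scanned on different days. Whether the repeat sets the signal of the brighter probe was not tested.

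**Figure D2:**
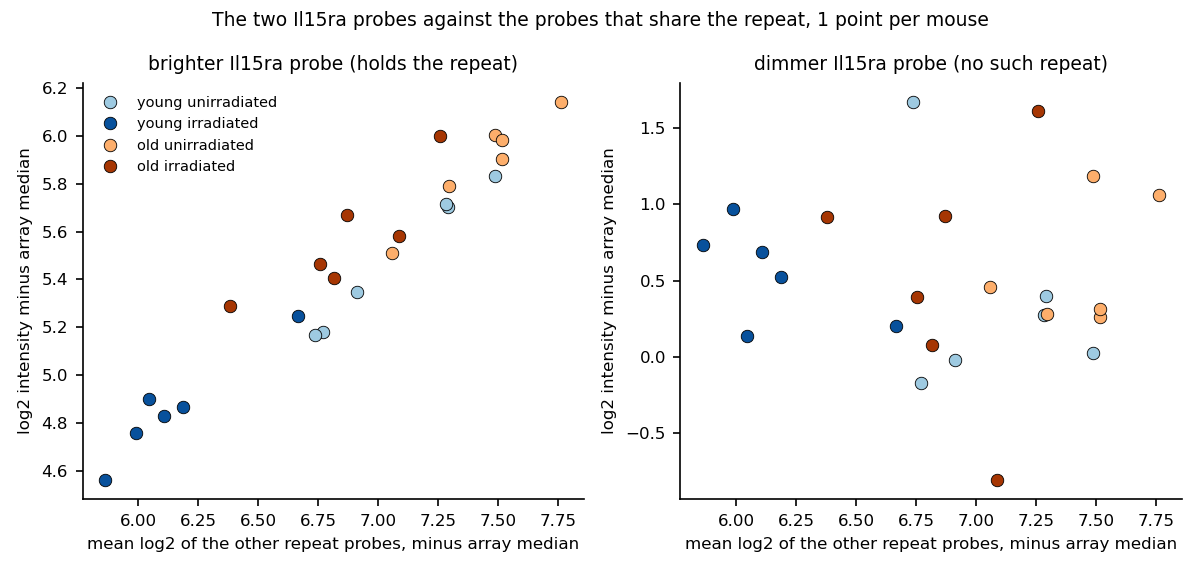
Log2 intensity of the 2 *Il15ra* probes (vertical axes) against the mean log2 intensity of 82 other probes that hold the repeat (horizontal axes), both minus the array median, with 1 point per mouse coloured by group. The brighter probe follows the repeat probes from 4.56 to 6.14, and the dimmer probe does not, with a median correlation of -0.05.

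Marker lists of the blood cells moved in the same mice, beside 14.3% of all genes called higher and 21.1% lower. All 10 B cell markers were downregulated in young irradiated mice (median log2 difference -2.56), as were 8 of 12 T cell markers (-1.12), among them *Lck* at -1.04 and *Cd3d* at -1.52, whereas *Cd4* was at -0.16 and was not called. Of 10 NK cell markers 5 were upregulated and none was downregulated (median 1.12), with the granule gene *Gzma* called at 1.78 and *Nkg7* and *Prf1*, at 0.69 and 0.55, not called. The list of tissue macrophage markers had 7 genes tested of 9, and all 7 were upregulated (median 4.89), with *Adgre1*, *Cd5l* and *C1qb* at 2.75, 5.43 and 2.25. The mean of the 9 genes ran from 0.387 to 4.14 in young unirradiated and from 4.88 to 6.85 in young irradiated mice. Monocyte markers (4 of 7 upregulated, 1 downregulated, median 1.23), neutrophil markers (4 of 10 upregulated, median 0.84) and platelet markers (7 of 7 upregulated, median 1.78) moved as well, and 5 of 8 red cell markers were downregulated (median -1.68). In deviations from the group means, *Il15* correlated with the neutrophil list at 0.88 and with the monocyte list at 0.72 over the 24 arrays, which share a scale. *Il4ra*, which was lower in young irradiated mice, correlated with the same lists at 0.86 and 0.82. Old irradiated mice 4 and 6, the lowest of their group in both genes, are included in these values. The part of these cells in the changes of *Il4ra*, *Il21r*, *Il2rg*, *Il2rb* and *Il15* was not tested.

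**Figure D3:**
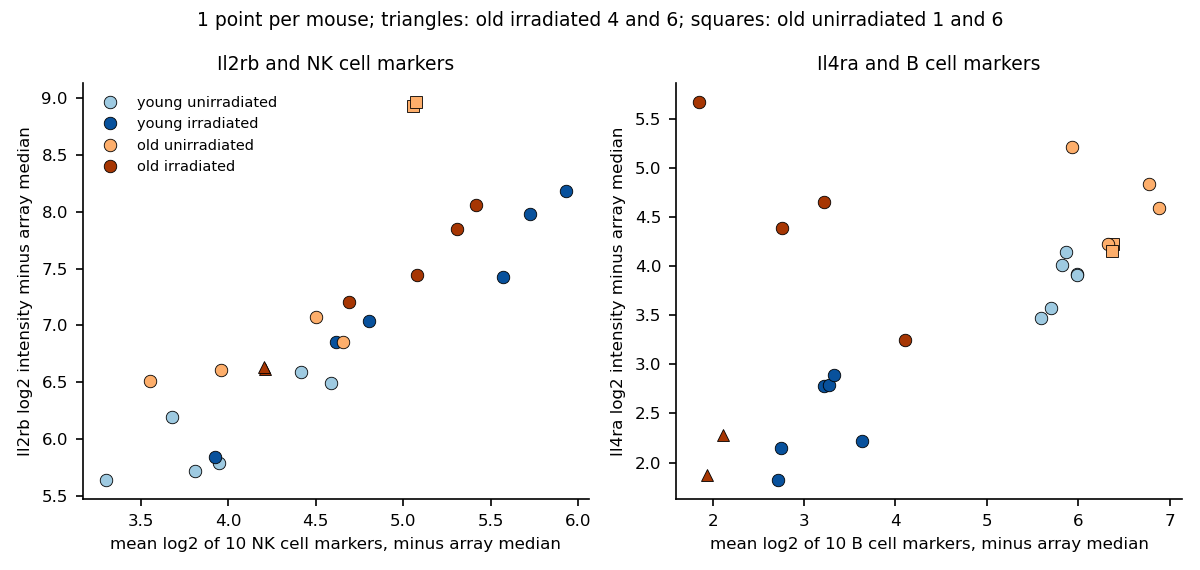
Log2 intensity of *Il2rb* against the mean of 10 NK cell markers, and of *Il4ra* against the mean of 10 B cell markers (all minus the array median), with 1 point per mouse. *Il2rb* tends to be higher where the NK markers are higher, and old unirradiated mice 1 and 6 (squares) have the highest *Il2rb*, at 8.93 and 8.96. *Il4ra* is spread from 1.87 to 5.67 in old irradiated mice at low B cell marker levels. Mice 4 and 6 (triangles) are the lowest of that group, at 1.87 and 2.28.

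In old mice, irradiation left the common gamma chain, *Il21r* and *Jak3* lower. *Il2rg* was downregulated 2.92-fold, *Il21r* 2.38-fold and *Jak3* 2.01-fold. These 3 genes stand beside 24.9% of all genes called, 7.49% higher and 17.4% lower, and no member was called higher. The median difference was -0.58 for the 10 genes and -0.26 for all genes.

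*Il2rg* ran from 6.12 through 6.42 to 7.57 in old unirradiated mice and from 4.53 through 5.26 to 5.54 in old irradiated mice, without overlap. The log2 difference was -1.55 (SE 0.33, limma adjusted p = 0.00383). It was -1.31 without old irradiated mice 4 and 6 and -1.13 without old unirradiated mice 1 and 6, and passed in both cases (adjusted p = 0.00569 and 0.0304). Those 2 unirradiated mice, at 7.57 and 7.51, were the highest of all 24.

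*Il21r* did not overlap either, at 4.27, 5.03 and 5.09 in old unirradiated mice and 3.30, 3.78 and 3.90 in old irradiated mice. The log2 difference was -1.25 (SE 0.24, limma adjusted p = 0.00218), and -1.08 and -1.17 without the same pairs of mice (adjusted p = 0.00121 and 0.0261). *Il2rg* and *Il21r* were the 2 genes without overlap, beside 22.5% of all genes. Within the slide that held both old groups, again 2 mice each, *Il2rg* differed by -1.52 and *Il21r* by -1.13, and neither passed (adjusted p = 0.0632 and 0.0477). Both were called in either age, and the difference between the ages in the response did not pass for either.

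*Jak3* lay at 3.39, 3.87 and 4.41 in old unirradiated mice and at 2.32, 2.91 and 3.52 in old irradiated mice, where 1 irradiated mouse exceeded the lowest unirradiated mouse. The log2 difference of -1.01 (SE 0.28, limma adjusted p = 0.0144) was the least secure of the 3. The call was lost on leaving out any 1 of old unirradiated mice 1, 2, 5 and 6 or old irradiated mice 4, 5 and 6 (-0.89 to -1.01, adjusted p 0.0259 to 0.0394). It was also lost without old irradiated mice 4 and 6 (-0.78, adjusted p = 0.021) and without old unirradiated mice 1 and 6 (-0.77, adjusted p = 0.106). The second *Jak3* probe, not listed with *Insl3*, differed by -0.79 (SE 0.26, limma adjusted p = 0.0317 over all probes) and did not pass.

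The other members were spread widely among the old irradiated mice. With the 75th percentile as the scale, which moved the median of all genes from -0.26 to 0.24, *Il15* and *Il2ra* were called higher, by 1.5 and 1.0, and *Jak3* was not called. *Il15* ran from 0.99 through 1.18 to 2.32 in old unirradiated and from 1.26 through 2.69 to 4.29 in old irradiated mice, a log2 difference of 1.20 (SE 0.49) that was not called (limma adjusted p = 0.0716). Old irradiated mice 4 and 6, at 1.38 and 1.26, were the lowest of their group, and without them the difference was 1.84 and passed (adjusted p = 0.00237). Without old unirradiated mice 1 and 6 it was 1.03 (adjusted p = 0.247).

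*Il2ra* differed by 0.70 (SE 0.32, adjusted p = 0.11) and, without mice 4 and 6, by 1.06 (adjusted p = 0.00363). The receptor *Il4ra* ran from 1.87 to 5.67 in old irradiated mice against 4.16 to 5.22 in old unirradiated mice, with a difference of -0.86 (SE 0.57, adjusted p = 0.259) that was -0.05 without mice 4 and 6. *Stat5a* differed by -0.85 (SE 0.41, adjusted p = 0.125), with mice 4 and 6 at 3.20 and 2.67 and the other 4 between 4.53 and 5.02, and by -0.20 without those 2 mice. *Stat5b* gave -0.04 (SE 0.43, adjusted p = 0.949) with those 2 mice and 0.62 (adjusted p = 0.0308) without them, not called. *Il2rb* gave -0.19 (SE 0.49, adjusted p = 0.78), which became 0.54 (adjusted p = 0.319) without old unirradiated mice 1 and 6 and 0.15 without old irradiated mice 4 and 6. No difference was called for the brighter *Il15ra* probe (-0.32, SE 0.22, adjusted p = 0.265).

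Among marker lists in old mice, 9 of 10 B cell markers were downregulated (median -3.84), no T cell or NK cell marker was called, and 7 of 7 platelet markers were upregulated (median 1.88), as were 5 of 6 hepatocyte markers (median 6.26). These counts stand beside 7.49% of all genes called higher and 17.4% lower. Of 7 monocyte markers 1 was upregulated and 2 were downregulated, and their mean was 4.67 and 4.77 in old irradiated mice 4 and 6 against 6.70 to 7.23 in the other 4. Their arrays also had the lowest median raw intensities, 8.66 and 8.84. The part of cell mixture or of dim arrays in the low *Il4ra*, *Stat5a*, *Stat5b* and *Il15* of those 2 mice was not tested.

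**Figure D4:**
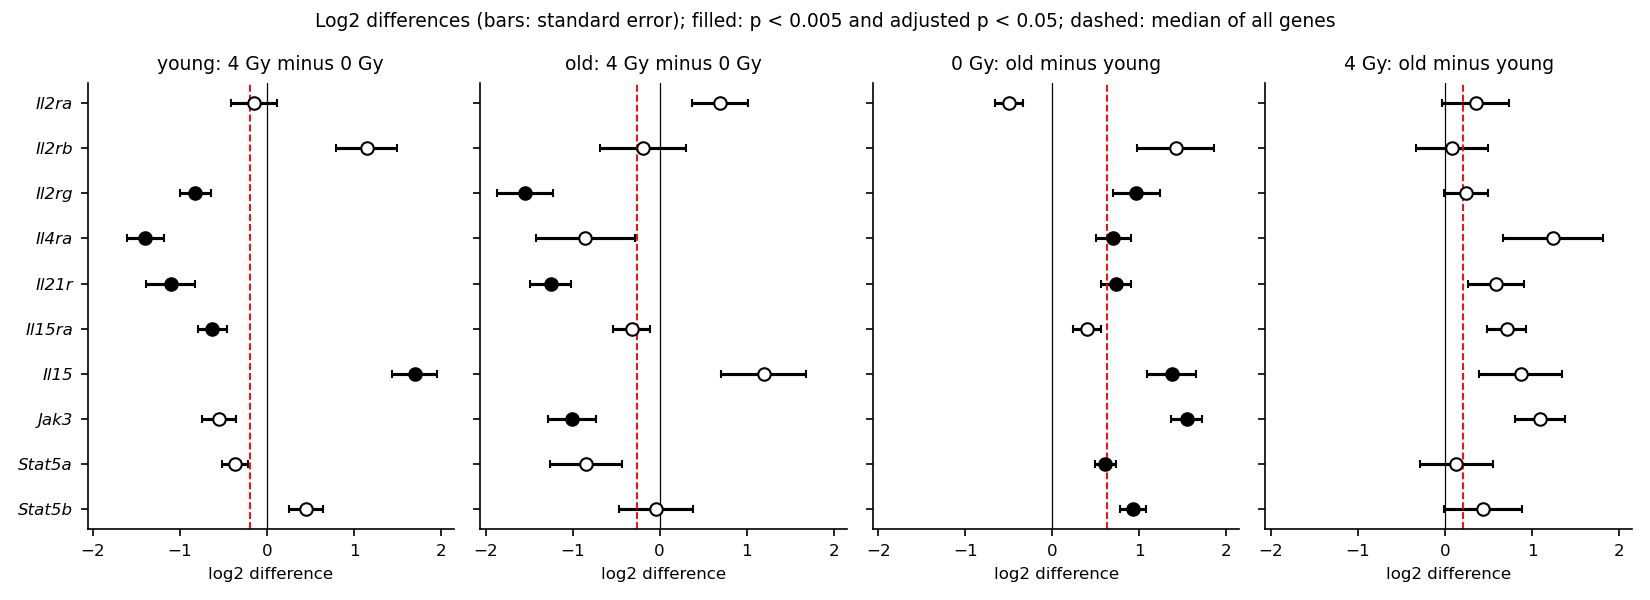
Log2 difference with its standard error (horizontal axis) for each gene (vertical axis) in the 4 comparisons, with filled points for called genes and a dashed line at the median of all genes. In the comparison of unirradiated mice the dashed line is at 0.63, and *Jak3*, *Il2rb* and *Il15* lie furthest above it while *Il2ra* lies below 0.

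Whether the response to radiation differed with age was tested as an interaction over all 24 arrays. No member passed (limma), with all mice or on leaving out any 1 of them. No gene passed with all mice, but the count over all genes was 1052 without old irradiated mouse 3 and 27 without old irradiated mice 4 and 6. At an unadjusted p below 0.05 stood 23.6% of all genes and 1 of the 10 members, *Il2rb*, whose old response was lower than the young by 1.34 (SE 0.62, limma adjusted p = 0.198). This value was -0.61 without old unirradiated mice 1 and 6 (adjusted p = 0.497) and -1.0 without old irradiated mice 4 and 6 (adjusted p = 0.477). *Il2ra* had an old response higher by 0.85 (SE 0.42, adjusted p = 0.217) and *Il2rg* one lower by 0.72 (SE 0.37, adjusted p = 0.227). A call in one age alone is therefore not shown to be a difference between the ages.

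Between unirradiated mice, most members and most genes were higher in old blood relative to the array median, and this depended on the scale. Scaled to the 75th percentile, the median of all genes was at -0.002. It was at 0.14 after quantile normalization, at -0.08 when scaled to the bright probes' median and at 0.02 in the deposited values. On these 4 scales, 1, 2, 1 and 0 members were called higher and 1 member each was called lower, of 8, 9, 8 and 10 members with a value. With the array median as the scale, the median difference of all 17805 genes was 0.63, with 63.9% called, 48.5% higher and 15.4% lower, and 7 of the 10 members were called higher. Young and old arrays were on different slides and scanned on different days, so age and scan cannot be told apart. Relative to the shift of all genes, *Jak3* was higher by 0.91, *Il2rb* by 0.79, *Il15* by 0.74, *Il2rg* by 0.34 and *Stat5b* by 0.30. *Il21r*, *Il4ra* and *Stat5a* lay at 0.11, 0.07 and -0.02 of it, and *Il15ra* and *Il2ra* at -0.23 and -1.12.

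*Jak3* showed the plainest separation, at 2.27, 2.36 and 2.46 in young unirradiated mice and 3.39 to 4.41 in old unirradiated mice. Its log2 difference was 1.54 (SE 0.18, limma adjusted p = 1.36e-05), and the second probe was higher by 1.25 (SE 0.16, adjusted p = 3.07e-05 over all probes). It stayed called with the 75th percentile (1.02), quantile normalization (1.06) or the median of bright probes (0.96) as the scale, all of which moved the median of all genes to between -0.08 and 0.14, and without old unirradiated mice 1 and 6 (1.31). The deposited values hold the second probe, which was higher there by 0.65 (adjusted p = 0.0347) and was not called. *Il15* was higher by 1.37 (SE 0.28, limma adjusted p = 0.000687), with 0.99 as the lowest old and 0.56 as the highest young value. It was 1.54 without old unirradiated mice 1 and 6, and was called with quantile normalization (1.23) but not with the 75th percentile (0.85, adjusted p = 0.0237). Nor was *Il15* called with the median of bright probes as the scale or in the deposited values. On the array median scale, 8 of 10 neutrophil markers (median 1.75) and 6 of 7 monocyte markers (median 1.46) were also called higher in old mice. So were 6 of 7 platelet, 4 of 10 B cell, 1 of 10 NK cell, 0 of 12 T cell and 0 of 8 red cell markers. Of all genes, 48.5% were called higher, with a median of 0.63. The part of these cells in the level of *Il15* was not tested.

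*Il2rg* was higher by 0.97 (SE 0.27, adjusted p = 0.0055) and *Il2rb* by 1.42 (SE 0.44), the latter not called (limma adjusted p = 0.00945, unadjusted p above 0.005). The dimmer *Il2rb* probe was higher by 1.52 (SE 0.44) and passed over all probes (limma adjusted p = 0.00674). In both genes, old unirradiated mice 1 and 6 were far above the other 4: 8.93 and 8.96 against 6.51 to 7.07 for *Il2rb*. They were also the highest by the dimmer *Il2rb* probe, at 7.71 and 7.90. Without them *Il2rg* was higher by 0.55 (adjusted p = 0.0182) and *Il2rb* by 0.69 (adjusted p = 0.0169), and neither was called. The *Il2rg* call was also lost without any 1 of young unirradiated mice 1, 2 and 5 or old unirradiated mice 1 and 6 (0.79 to 0.92), and that of *Il4ra* without any 1 of young unirradiated mice 1, 3, 4 and 5 or old unirradiated mice 3, 4 and 5 (0.57 to 0.72). *Il2rb* was called without old unirradiated mouse 4 (1.61) or 5 (1.59). The same 2 old mice 1 and 6 had T cell marker means of 6.79 and 6.92, against 5.34 to 5.99 in the other 4, and NK cell marker means of 5.05 and 5.07, against 3.55 to 4.66. The part of those cells was not tested.

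*Stat5b* was higher by 0.93 (SE 0.15), *Il21r* by 0.73 (SE 0.17), *Il4ra* by 0.70 (SE 0.20) and *Stat5a* by 0.61 (SE 0.12) in old unirradiated mice, and all 4 were called, although *Il21r* was not without old unirradiated mice 1 and 6 (0.65, adjusted p = 0.0122). With the 75th percentile or quantile normalization as the scale *Stat5b*, *Il21r* and *Il4ra* were not called (0.41, 0.22 and 0.18 with the former), and *Stat5a* did not pass the filters. *Il2ra* went the other way, lower by 0.50 (SE 0.16, limma adjusted p = 0.0134, not called since the unadjusted p missed 0.005), with levels of 0.89, 1.48 and 1.63 in old and 1.54, 1.87 and 2.29 in young mice. With the 75th percentile, quantile normalization or the median of bright probes it was lower by 1.02, 0.77 and 1.08 and was called, as it was on leaving out young unirradiated mouse 5 (-0.57, adjusted p = 0.0071). Of the 10 members 6 did not overlap between the ages, beside 48.6% of all genes.

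Between irradiated mice, no member was called, beside 1.99% of all genes, 1.4% higher and 0.595% lower in old mice. With limma 3 members had an unadjusted p below 0.05, beside 21.4% of all genes, and 1, *Il15ra*, did not overlap between the groups, beside 5.04%. The 3 were *Jak3* (higher in old by 1.09, SE 0.29, limma adjusted p = 0.071), the brighter *Il15ra* probe (0.71, SE 0.22, adjusted p = 0.106) and *Il4ra* (1.24, SE 0.57, adjusted p = 0.231). The second *Jak3* probe was higher by 0.82 (SE 0.26). The dimmer *Il15ra* probe differed by -0.02 (SE 0.36) and the dimmer *Il4ra* probe by 0.20 (SE 0.58). The mean of the 82 probes that share the repeat with the brighter *Il15ra* probe was 6.86 in old and 6.14 in young irradiated mice. Fits of all arrays together and with the slide as a random block each called *Il15ra* and *Jak3*. Without old irradiated mice 4 and 6, *Il4ra*, *Il15ra*, *Il15*, *Jak3*, *Stat5a* and *Stat5b* were called higher in old mice, by 2.05, 0.75, 1.51, 1.32, 0.78 and 1.10. Under that setting 28.4% of all genes were called, against 1.99% with all mice.

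The order of the groups differed among members. For *Il2rg*, *Il4ra*, *Il21r* and *Stat5a* the order from highest to lowest mean was old unirradiated, young unirradiated, old irradiated, young irradiated. In *Il2rg* the exact permutation test (2-sided) gave p = 0.236 between the irradiated groups. It gave 0.00216, the smallest that 924 splits of 6 against 6 allow, between the unirradiated groups. That test counts old unirradiated mice 1 and 6, the 2 highest in *Il2rg*, as separate samples, and without them the gene was not called. Of all genes, 48.6% did not overlap between the unirradiated groups, where age and scan cannot be told apart. For *Il15* the order was old irradiated, young irradiated, old unirradiated, young unirradiated, and only the last step, between the unirradiated ages, had a small p (exact permutation p = 0.00216). In *Jak3* the old groups were both above the young groups, and each step had an exact permutation p of 0.0152 or below.

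Other genes of the pathway that could be read came from lists of the remaining family receptors and cytokines, kinases and STATs, and adaptors and inhibitors. Of 11 further receptors and cytokines, 6 were tested, and 1 was called higher and 1 lower in young irradiated mice, beside 35.4% of all genes called. *Il7r*, the receptor for interleukin 7, was downregulated by 1.88 (SE 0.24, adjusted p = 6.3e-05) in young irradiated mice and differed by -1.10 (SE 0.45, adjusted p = 0.0768) in old mice. *Crlf2*, which pairs with IL7R in the receptor for thymic stromal lymphopoietin, was upregulated by 0.59 (SE 0.15) in young mice. No gene of this list was called in old irradiated against old unirradiated mice, beside 24.9% of all genes. *Il7r* was higher in old than in young irradiated mice by 2.03 (SE 0.33, limma adjusted p = 0.0144), the only gene of the list called there, beside 1.99% of all genes.

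Of the 8 other kinases and STATs, 1 was called after irradiation, *Stat2*, an interferon signal transducer, upregulated by 0.71 (SE 0.17) in young mice. *Jak1*, the partner of JAK3 in these receptors, differed by -0.02 (SE 0.31) in young and 0.04 (SE 0.28) in old mice. *Stat6*, which carries the signal of IL4RA, differed by -0.09 (SE 0.13) and -0.55 (SE 0.43). The medians of the list were 0.24 in young and -0.33 in old mice, against -0.20 and -0.26 for all genes.

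Among 18 adaptors and inhibitors tested, 6 were upregulated and 2 downregulated in young mice, and 3 were upregulated and 2 downregulated in old mice, beside 35.4% and 24.9% of all genes called in these comparisons. *Cish*, a feedback inhibitor induced by STAT5, was upregulated by 1.45 (SE 0.24, limma adjusted p = 0.00036) in young and 1.63 (SE 0.45, adjusted p = 0.0149) in old mice. *Ptpn11*, the phosphatase SHP-2, was upregulated by 1.69 (SE 0.28) and 1.27 (SE 0.26), and *Sh2b3*, an adaptor that restrains JAK signalling, by 1.03 (SE 0.26) and 0.95 (SE 0.23). *Socs2* and *Socs3* were upregulated by 1.68 (SE 0.35) and 0.85 (SE 0.21) in young mice and were at 1.05 (SE 0.48) and -0.19 (SE 0.76), not called, in old mice. *Ptpn6*, the phosphatase SHP-1, was downregulated by 0.81 (SE 0.14) in young mice.

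Of 19 genes listed as targets of STAT5, several of which stand in the lists above or respond to other signals, 6 were upregulated and 3 downregulated in young mice, and 2 each way in old mice, beside the same shares of all genes. *Id2* and *Gzmb*, which are high in NK cells, were upregulated by 1.60 (SE 0.22) and 1.94 (SE 0.36) in young mice. *Ccnd3* was upregulated in both ages (1.28, SE 0.24, and 1.0, SE 0.25). *Foxp3*, which defines regulatory T cells, was downregulated by 1.36 (SE 0.29) in young mice and differed by -0.40 (SE 0.53) in old mice, *Lta* was downregulated by 1.83 (SE 0.16) and 1.48 (SE 0.32), and *Myc* by 1.76 (SE 0.46) in old mice. The medians of the list were 0.25 and 0.01, against -0.20 and -0.26 for all genes. No gene of these 4 lists passed in the interaction.

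**Figure D5:**
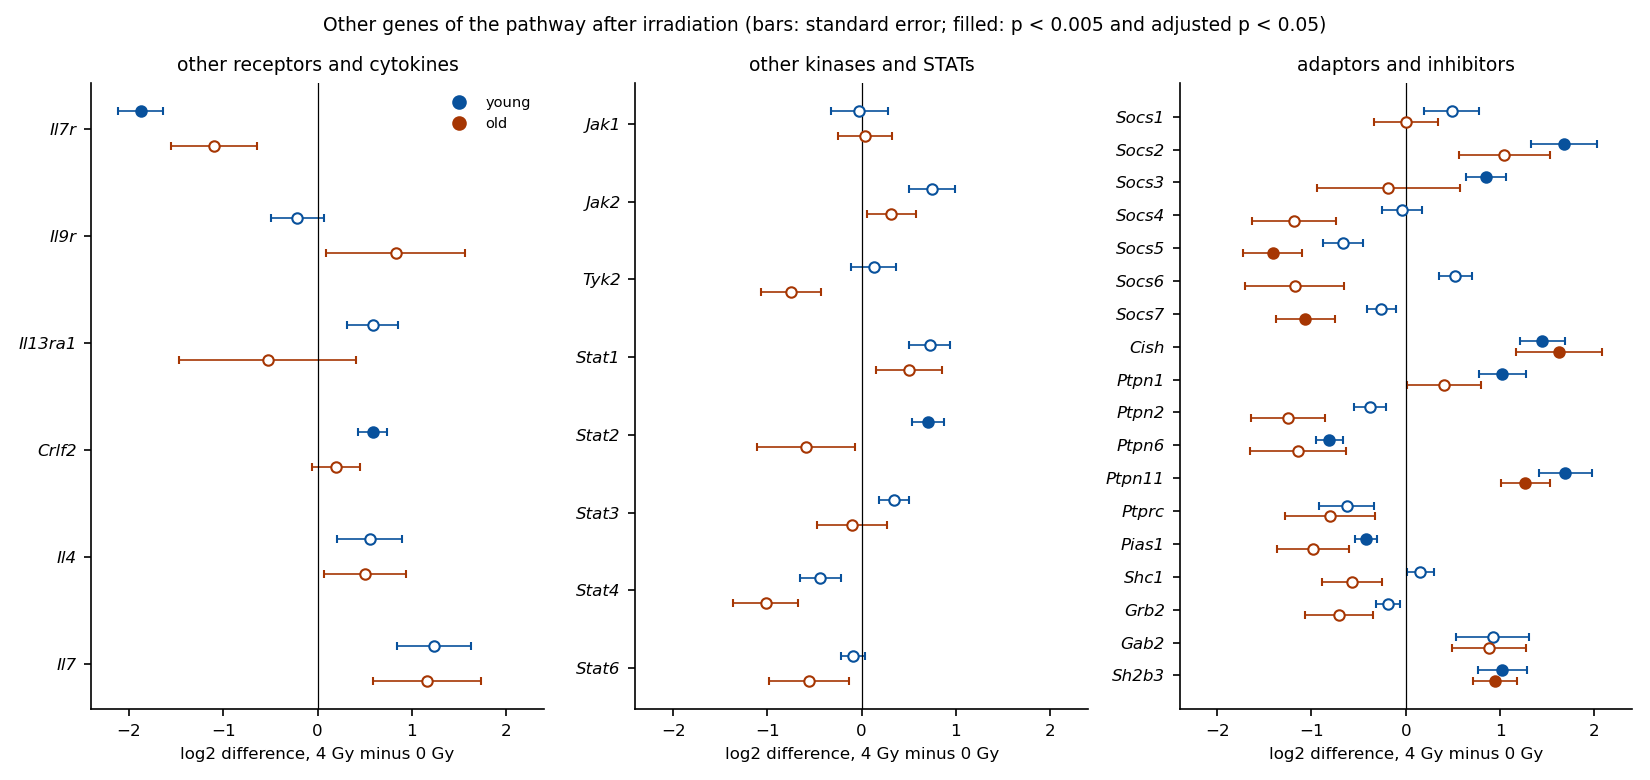
Log2 difference between irradiated and unirradiated mice with its standard error (horizontal axes) for the other genes of the pathway (vertical axes), in young and old mice, with filled points for called genes. *Cish*, *Ptpn11* and *Sh2b3* are called higher in both ages and *Il7r* is called lower in young mice.

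The genes most like each member in pattern over the 24 arrays, among 18736 genes, were different for each. *Il2rb* was most like *Ifi47*, an interferon-induced GTPase, and *Klrk1*, the NK receptor NKG2D (Pearson r 0.95 for both, and 0.93 for deviations from group means). *Il21r* was most like *Mfng* (0.97) and *Pde7a* (0.96), *Il4ra* like *Csrnp1* (0.96) and *Carns1* (0.95), *Il15* like *Amer2* and *Atp2c1* (both 0.97), *Stat5a* like *Zkscan6* (0.98) and *Tcf20* (0.97), and *Stat5b* like *Nfe2l2* (0.98) and *Lnpep* (0.97). *Jak3* was most like *B130055M24Rik* (0.95) and *Arid3b* (0.94), with only 0.74 and 0.73 once group means were removed. *Il2rg* was most like an unnamed transcript (0.97) and *Phf6* (0.96), and *Il2ra* had the least close neighbours, an unnamed transcript (0.84) and *Ly6g5b* (0.79).

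Among the members, the closest pairs in deviations from the group means were *Il4ra* and *Stat5b* (r 0.93), *Il15* and *Il4ra* (0.91) and *Stat5a* and *Stat5b* (0.91), in all of which old irradiated mice 4 and 6 were low. Without those 2 mice they gave 0.83, 0.83 and 0.62. The neighbours *Il2ra* and *Il15ra* gave 0.04, and *Il4ra* and *Il21r* 0.37. All of these share the same 24 arrays and scale.

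A search of RefSeq promoter windows (GRCm38, 250 bases before to 50 after a start) for the palindrome TTCNNNGAA that STAT5 binds found it in 0 of 11 windows of 8 members, against 8.30% of 32851 windows of all genes. *Il2rb* and *Il15* had no window. No match says only that these letters are not in these windows.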

How the data were processed

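RNA of 24 whole blood samples was labelled with Cy3, hybridised to Agilent mouse arrays and read with Agilent Feature Extraction 12.0.2. The deposited scanner files hold processed intensity per spot, background-corrected by that software. A second table deposited for the series gives log2 values in 17190 rows. Its scale and centring are not fully known, and it served as an alternative. From the scanner files, log2 intensity minus the median of 43020 non-control spots was computed, with non-uniform spots left out. A probe was dropped when its spot was flagged as non-uniform, or as not significantly brighter than background, on at least 25% of arrays. This left 24130 of 39429 probes. Probes without a 1.5-fold change from the median in at least 5 arrays were filtered as well. The brightest probe stood for a gene, giving 17805 genes. The 2 groups of a comparison were fitted with limma 3.58.1 in R 4.3.3 and adjusted by Benjamini-Hochberg over all genes. The interaction used all 24 arrays. Single genes were compared between neighbouring group means by exact permutation tests, 2-sided. The scripts were tested on simulated data. The number of arrays limits the precision.

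The members and lists were chosen with earlier results of these data known. Named beside the 10 members were the genes of the pathway lists, up to 3 genes of the highest mean signal in each marker list, and the 2 genes most correlated with each member. Alternatives covered the scale, background, probes, filters, blocks, the deposited values and each mouse left out. Leaving out or averaging pairs of mice was chosen after seeing the data.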

Additional observations from a re-analysis of the deposited data

Results flagged for a closer look

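In 4 of 60 groups of 6 values (15 probes of 10 genes in 4 groups), 6.67%, a single mouse lay far from the other 5, where chance gives about 1 in 20. The dimmer *Il15ra* probe was highest in young unirradiated mouse 5, at 1.67. *Il21r* was lowest in old unirradiated mouse 4, at 4.27, with the other 5 mice between 4.96 and 5.09. *Il2ra* was lowest in the same mouse, at 0.889, with the others between 1.39 and 1.63. *Jak3* was highest in young irradiated mouse 6, at 2.70, with the others between 1.5 and 1.82.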

How the results depend on the processing

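Of the alternative values of the members and their counts, 1395 were sorted as the same and 2 as reversed. Another 89 were weaker (a call lost or a lower count) and 34 stronger (a call gained or a higher count). A value called in neither fit was sorted as the same even where its sign changed. In old irradiated against old unirradiated mice, *Il2rb* kept its direction in 20 of 31 settings, whereas *Il2rg* did in 31 of 31. Members called between unirradiated ages were 7, all higher in old mice. They numbered 2 with the 75th percentile as scale (1 higher, 1 lower), 3 with quantile normalization (2 higher, 1 lower), 2 with the median of bright probes (1 higher, 1 lower), 1 in the authors' deposited values (lower) and 4 with 1 fit of all arrays (all higher). The shares of all genes called were 37.3%, 38.3%, 35.8%, 25.9% and 34.9%. With normexp background correction 0 members and 0 of 11803 genes were called. The deposited values hold the other probe of *Il2rb*, *Il4ra*, *Il15ra* and *Jak3*. In young mice the count of 5 became 0 with normexp, 3 in the deposited values and 0 within 1 slide. The shares of all genes called were 7.09%, 21.8% and 0.432%. In old mice the count of 3 became 0 with normexp and 0 within 1 slide, where 2 mice stood against 2. Of all genes, 0.0678% and 12.1% were called in these settings. Between irradiated ages the count of 0 became 2 with 1 fit of all arrays, 2 with the slide as a random block and 6 without old irradiated mice 4 and 6. Of all genes, 14.4%, 7.67% and 28.4% were called there. Leaving out 1 mouse gave 4 to 6 calls in young mice, 2 to 3 in old mice, 5 to 7 between unirradiated ages, 0 to 0 between irradiated ages and 0 to 0 for the interaction. In the same order, the shares of all genes called ran from 30.6% to 37.0%, 18.2% to 26.0%, 58.4% to 65.4%, 0.168% to 2.87% and 0% to 5.91%. *Il15ra* in young mice reversed to 0.17 with quantile normalization, where the dimmer probe stood for the gene because the brighter one did not pass the fold filter. *Stat5a* between unirradiated ages reversed to -0.072 in the deposited values, and the cause was not tested. Samples of the same replicate number had correlations of deviations between -0.60 and 0.58, and whether the numbers pair the samples was not tested. With the replicate block the counts were 4 in young mice, 2 in old mice, 6 between unirradiated ages and 0 between irradiated ages. The shares of all genes called with that block were 28.5%, 19.5%, 58.2% and 0.0112%. *Stat5a* had no value with the 75th percentile, quantile normalization or the median of bright probes. *Il15ra* had none with the 75th percentile or the median of bright probes, and *Il2ra* had none with normexp. The counts with the 75th percentile and the median of bright probes are therefore out of 8 members, and those with quantile normalization and normexp out of 9. No slide held both ages. In the interaction no member passed in any setting, while over all genes 8 passed with the 75th percentile, 1052 without old irradiated mouse 3, 32 when slide was a random block, and 6050 without old irradiated mice 2, 3 and 5. Dim probes limit *Il15* in young unirradiated mice.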
